A study of Drosophila melanogaster with 16 samples.

Results

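The comparison described here is between larvae of Drosophila melanogaster after 16 h and after 4 h on food with added sucrose. It holds 7 RNA-seq libraries of whole wild-type (labelled WT) larvae, 3 at 4 h (replicates 1, 3 and 4) and 4 at 16 h (replicates 1 to 4), of the 14 libraries with values in the series. First-instar larvae had been kept on a low-sugar diet (LSD, 10% yeast) at 25 °C, and as early second-instar larvae they were moved to plates with blue food dye (2%). The high-sugar plates (HSD) held 15% sucrose besides the yeast. Larvae that were feeding were then frozen. Larvae at 8 h on HSD (n = 3) and larvae at 8 h on LSD (n = 4) of the same genotype were available as well, and their values are given beside the comparison. Each library is RNA of whole larvae collected together as 1 sample. HSD 4 h replicate 2 and HSD 8 h replicate 1, which the labels mark as removed, were not analysed here. The only LSD group is at 8 h, so time on sugar, larval age with its approach to the next molt, and time of day cannot be told apart between 4 h and 16 h. The labels do not say whether the replicates came from separate cultures. The p-values therefore measure only how these samples differ among themselves, which may be technical.

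Sucrose is split in the larval midgut by maltases, and the sugars reach the fat body and other tissues, where the Mondo-Mlx transcription factors sense them and turn on genes for glycolysis and fat synthesis. Larvae grow throughout this period under insulin and TOR signalling, which drive the synthesis of ribosomes and, in tissues that endoreplicate, DNA. Each larval stage ends with a molt: pulses of the steroid hormone ecdysone switch on nuclear receptors, and the epidermis secretes a new cuticle of chitin and cuticle proteins.

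The 7 libraries held between 17125595 and 24370459 reads, recovered from the deposited values, and a count of 3 reads equals 0.124 to 0.180, by library. These limits hold for counting error alone. Values are reads that the authors scaled to a common library size. They are not per gene length, so they compare a gene between libraries and not genes with each other. Pearson correlations of log2 values across genes lay between 0.986 and 0.988 among the 4 h libraries and between 0.973 and 0.992 among the 16 h libraries, where the lowest was between replicates 2 and 3. No library pair agreed within sampling noise. Differences, and the amounts by which a gene is said to rise or fall, are on the log2(value + 0.5) scale, given with the standard error (SE) where shown. Adjusted p-values are from limma across 9977 genes, and genes were called at an adjusted p under 0.05. For low genes this scale understates a change. No source used here states the strand setting of the counting. Many genes named below share part of their span, introns included, with another gene of the reference annotation, so their reads are uncertain. On the same strand these are Acsl, CG12262, CG15406, CG3285, Cht7, Gs1, ImpL2, Mtk, Myc, RpL36A, Rpt1, TwdlT, Twdlalpha, Uhg1, edin, elav, ftz-f1, kkv, nop5, raptor, ras, sug and tim. On the opposite strand only they are ACC, CG11395, CG11413, CG30499, CG6271, CG6283, CG9521, Cda5, CycE, Cyp301a1, Cyp49a1, DptB, Gnmt, Gpdh, Hex-C, Hmgs, Ilp6, Klp61F, Mal-A1, Mal-A8, Mal-B1, Mal-B2, Mondo, Ndg, Nop17l, Nopp140, Obp44a, Obp99c, Orc2, PCB, PGRP-LB, Pgd, RpI1, RpLP0-like, S6k, Tk, UGP, Zw, bigmax, cbt, deltaTry, fzy and per. The span of Cyt-c-p, Etf-QO, Mcm3 and hoip was not analysed here. The libraries count whole animals, so fewer cells of a type and less RNA per cell cannot be told apart.

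Between 4 h and 16 h 3616 genes changed (36.2% of those tested), of which 1686 rose (16.9%) and 1930 fell (19.3%). The counts of called list members below are to be read against these shares, and departures from them were not tested. Large changes were mostly falls: 531 genes were called lower at least 2-fold (5.32%) and 171 were called higher at least 2-fold (1.71%). The median fold of the called genes was 1.41, and the 95% interval of a gene reached 0.22 to either side in log2, as the median over all genes. The 4 h and 16 h libraries did not overlap in 46.0% of all genes (22.1% higher and 23.9% lower). With quantile normalization 2186 genes were called higher and 1559 lower, and the median of all genes moved by 0.05. Side by side, 912 genes were called between 4 h and 8 h (9.14%; 461 higher and 451 lower) and 2936 between 8 h and 16 h (29.4%; 1416 higher and 1520 lower). The count for the earlier interval was 345 without HSD 4 h replicate 1, 324 without HSD 4 h replicate 4, 312, 369 and 453 without HSD 8 h replicates 2, 3 and 4, and 1250 without LSD 8 h replicate 3. These comparisons share the 4 h, 8 h or 16 h libraries with each other.

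**Figure D1:**
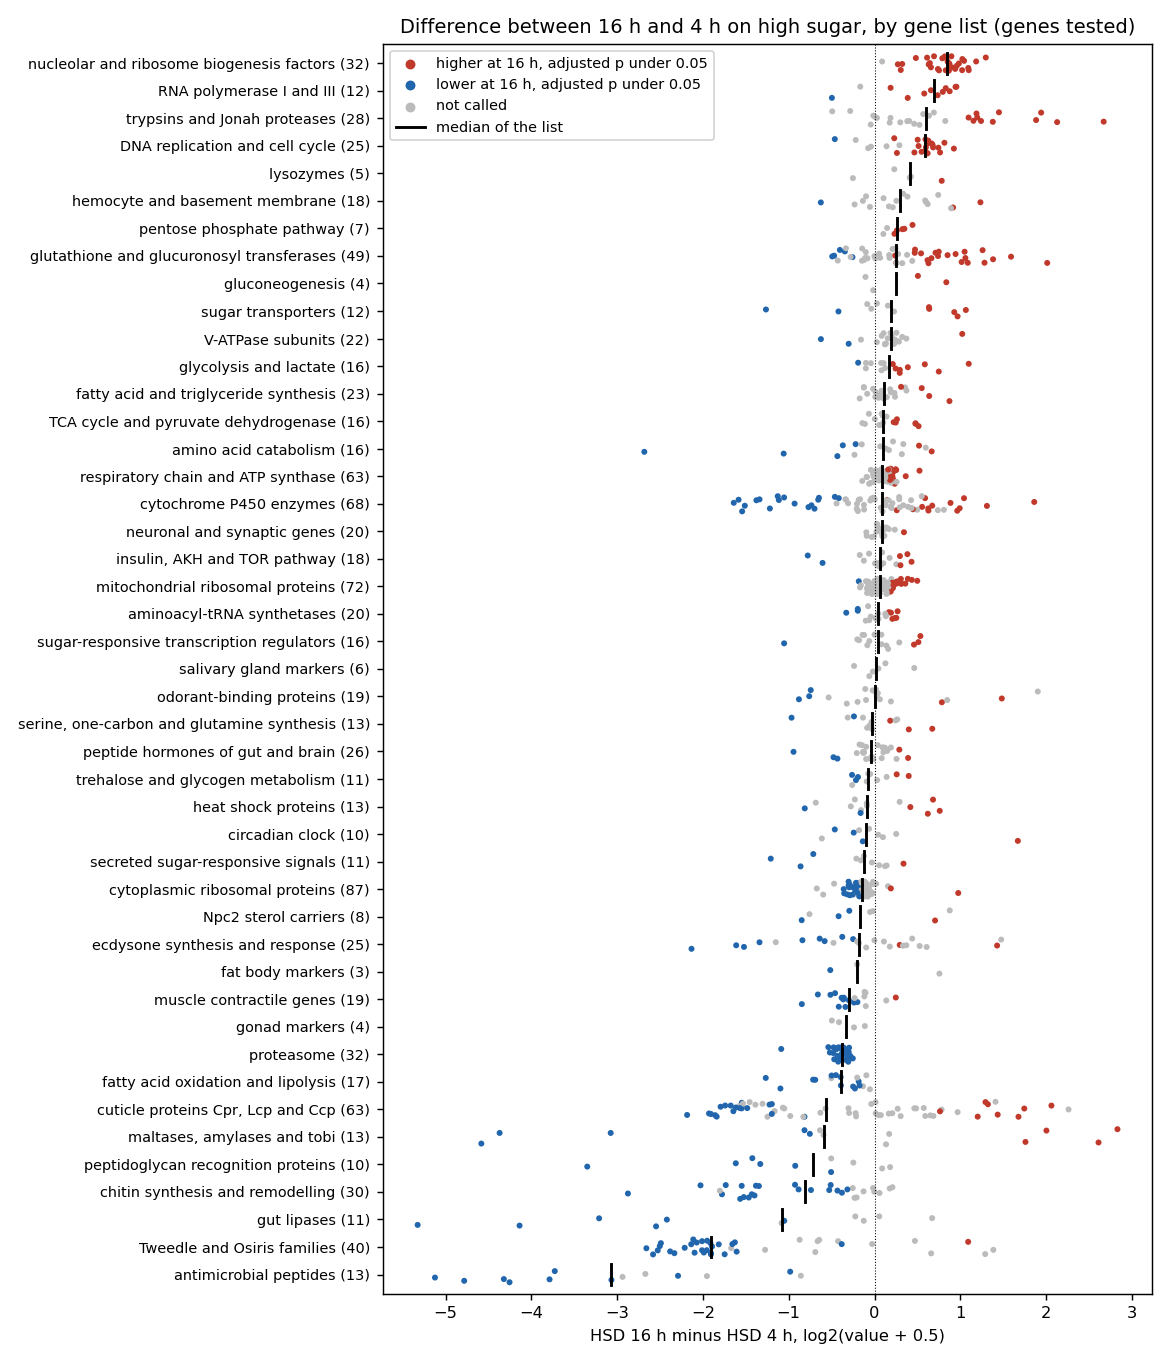
Each point is a tested gene of the list named on the left, placed by its log2 difference between HSD 16 h (n = 4) and HSD 4 h (n = 3). Red genes were called higher, blue genes lower and grey genes were not called, and the black bar is the list's median. Nucleolar genes all lie to the right of 0, and proteasome and antimicrobial peptide genes all to the left. Most chitin, Tweedle and Osiris genes also lie to the left.

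Among the regulators of the sugar response, Mondo and its target sug were higher at 16 h than at 4 h, while most members of that list were not called. Of 16 tested 3 were higher and 1 lower (of all genes 36.2% were called; list median 0.04, against 0.00070 for all genes; with quantile normalization the list median was 0.11 and 5 were called higher). Mondo, the sugar-sensing factor itself, had values of 187, 200.4 and 179 at 4 h and 255, 261, 285 and 277 at 16 h. The groups did not overlap, and the difference was 0.51 ± 0.07 SE in log2, adjusted p = 2.4e-04. The 8 h mean of 268 ± 3.34 SD (n = 3) lay among the 16 h values. The zinc-finger factor sug had values of 94.6, 90.4 and 75.3 at 4 h and 122, 114, 119.6 and 121 at 16 h, again without overlap, a difference of 0.46 ± 0.10 SE in log2, adjusted p = 0.00311. In the LSD larvae sug stood at 11.2 ± 1.18 SD (n = 4), below every HSD library. The growth factor Myc rose as well, from 56.5 ± 8.21 SD to 81.9 ± 9.497 SD (0.53 ± 0.12 SE in log2, adjusted p = 0.00513). The threshold was missed by bigmax, the partner of Mondo (-0.20 ± 0.13 SE in log2, adjusted p = 0.256), and by cbt, a Mondo target of the Klf10 type (0.16 ± 0.09 SE in log2, adjusted p = 0.208). It was also missed by cwo, the clock repressor for which the series is named (-0.18 ± 0.09 SE in log2, adjusted p = 0.140). The 16 h values of cwo were 77.0, 77.7, 95.5 and 80.3, overlapping the 4 h values of 87.2, 101 and 92.2. Without HSD 16 h replicate 3, the highest of the 4, cwo was called lower and the list had 2 lower members, as with array weights, and cbt was called higher with quantile normalization. REPTOR-BP, the bZIP partner of the TOR-regulated factor REPTOR, was the member that fell, from 34.0, 25.8 and 21.3 at 4 h to 14.2, 11.8, 12.6 and 11.7 at 16 h (-1.05 ± 0.17 SE in log2, adjusted p = 5.5e-04).

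Of 11 tested secreted signals of growth and nutrition 3 were called lower at 16 h, 1 was called higher and 7 were not called. Of all genes 19.3% were called lower and 16.9% higher. The list median was -0.12 (-0.02 with quantile normalization), and 5 members were called lower with no filter. Ilp6, an insulin-like peptide that the fat body releases, had values of 31.0, 18.7 and 23.2 at 4 h and 11.1, 8.58, 9.74 and 10.8 at 16 h. Every 16 h library was below every 4 h library, the difference was -1.21 ± 0.15 SE in log2, adjusted p = 9.2e-05, and the 8 h mean of 11.5 ± 0.763 SD (n = 3) was already at the later level. ImpL2, a secreted protein that binds insulin-like peptides, had values of 340.1, 177 and 251 at 4 h and 132, 139, 119 and 156 at 16 h. Its groups were also apart, and it fell by 0.86 (adjusted p = 0.00197). Its 8 h mean was 232 ± 29.5 SD (n = 3), inside the range of the 4 h libraries. CG11395, named Gbp2 in the current annotation and encoding a growth-blocking peptide, fell from 93.5 ± 4.71 SD to 57.1 ± 7.13 SD (-0.71 ± 0.12 SE in log2, adjusted p = 6.5e-04). The activin ligand daw was called higher (0.34 ± 0.10 SE in log2, adjusted p = 0.0192), a call that was lost without HSD 4 h replicate 4 and with the replicate block (members of the list higher: 0 without HSD 4 h replicate 4, 2 without HSD 16 h replicate 2, 0 with the replicate block, 2 with quantile normalization). In the insulin and TOR pathway 4 members were called higher (1 without HSD 4 h replicate 1, 2 without HSD 16 h replicates 2 or 4 or HSD 4 h replicate 4). In the same list 2 of 18 were called lower (1 without HSD 16 h replicates 2 or 3 or HSD 4 h replicates 1 or 4, 1 with quantile normalization or with the replicate block). Rheb, the GTPase that activates TORC1, fell from 109, 96.8 and 92.9 to 70.2, 61.2, 64.0 and 64.9 (-0.61 ± 0.07 SE in log2, adjusted p = 9.9e-05), without overlap. Thor, the translation inhibitor 4E-BP, had a mean of 418 ± 75.5 SD (n = 3) at 4 h, 493 ± 97.8 SD (n = 3) at 8 h and 243 ± 36.7 SD (n = 4) at 16 h. Its difference between 8 h and 16 h was -1.01 ± 0.25 SE in log2, adjusted p = 0.00957. Against 4 h its difference was -0.78 ± 0.25 SE in log2, adjusted p = 0.0270, and that call was lost without 1 of replicates 1 and 4 at 4 h or 1 of replicates 2 and 3 at 16 h, with quantile normalization and with the replicate block. S6k, the kinase downstream of TOR (log2 difference 0.30), and raptor, a subunit of TORC1 (0.38), were called higher, a call that S6k lost without HSD 4 h replicate 4 and raptor without HSD 4 h replicate 1. Of 10 clock genes 1 was called higher (2 with quantile normalization) and 3 lower (1 without HSD 16 h replicates 1 or 4 or HSD 4 h replicate 4, 0 with quantile normalization). The riser was tim, which encodes the partner of the period protein. Its values were 1.84, 1.66 and 2.58 at 4 h and 8.29, 7.01, 8.05 and 6.55 at 16 h. All 16 h libraries were above the 4 h ones (1.67 ± 0.22 SE in log2, adjusted p = 1.3e-04), and the 8 h mean was 6.30 ± 1.298 SD (n = 3). On LSD at 8 h tim stood at 3.02 ± 1.06 SD (n = 4). In flies tim transcripts are known to cycle over the day, and a part of time of day in this rise was not tested. The gene of the period protein, per, was not called (0.04 ± 0.20 SE in log2, adjusted p = 0.889). Its mean was 1.14 ± 0.526 SD (n = 3) at 4 h and 1.13 ± 0.142 SD (n = 4) at 16 h.

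Of all genes 16.9% were called higher and 19.3% lower, and the counts of this paragraph stand beside these shares. The list of glycolysis and lactate, with enzymes that lead into glycerol-3-phosphate, was called higher at 16 h in 8 of 16 members and lower in 1. With a fitted fold of at least 1.5 the count higher was 3. The list median was 0.17. With quantile normalization this median was 0.32 and none was called lower. The largest rise of the list was that of Gpo-1, the mitochondrial enzyme that reoxidises glycerol-3-phosphate. Its values were 567, 649 and 638 at 4 h and 1333, 1304, 1316 and 1333 at 16 h. The 2 groups were far apart (1.10 ± 0.07 SE in log2, adjusted p = 3.9e-06), and the 8 h mean of 1024 ± 21.6 SD (n = 3) lay between them. Gpdh, its cytosolic partner in the shuttle, rose by 0.59 (adjusted p = 8.9e-04). Hex-C, a hexokinase, rose from 11.5, 10.3 and 11.8 to 22.3, 18.4, 18.4 and 17.6 (0.75 ± 0.11 SE in log2, adjusted p = 2.6e-04). The pentose phosphate pathway, which supplies NADPH and ribose, was called higher in 5 of 7 members (median 0.26, and 0.45 with quantile normalization). With a fitted fold of at least 1.5 the count was 0. CG30499, a predicted ribulose-phosphate epimerase, rose by 0.44, Taldo (transaldolase) by 0.35 and Pgd, the phosphogluconate dehydrogenase, by 0.26. Zw, the glucose-6-phosphate dehydrogenase, had values of 154, 165 and 158 at 4 h and 182, 177, 171 and 176 at 16 h and was not called (0.15 ± 0.08 SE in log2, adjusted p = 0.193), while it was with quantile normalization and with only the compared groups in the fit. In the citric acid cycle and its link from pyruvate, 6 of 16 members were called higher (11 with quantile normalization, 0 with a fitted fold of at least 1.5). None was called lower (1 with only the compared groups in the fit). Citrate synthase kdn rose from 575 ± 15.8 SD to 821 ± 13.7 SD (0.51 ± 0.07 SE in log2, adjusted p = 1.2e-04), and the pyruvate dehydrogenase subunits l(1)G0334 and CG11876 each rose by 0.48. PCB, the pyruvate carboxylase, had a difference of 0.51 ± 0.12 SE in log2, adjusted p = 0.00530. CG10924, a phosphoenolpyruvate carboxykinase, had a difference of 0.84 ± 0.17 SE in log2, adjusted p = 0.00188, with an 8 h mean of 73.2 ± 6.83 SD (n = 3) above that of 50.4 ± 5.06 SD at 16 h.

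Of 23 genes of fatty acid and triglyceride synthesis 4 were called higher between 4 h and 16 h, near the 16.9% of all genes, and none lower. The count lower was 1 with only the compared groups in the fit. The list median was 0.11, and 0.22 with quantile normalization. From 4 h to 8 h 6 were called higher and none lower (median 0.24), where 4.62% of all genes were called higher. From 8 h to 16 h none was called higher and 3 lower (median -0.09), where 15.2% of all genes were called lower. The central enzymes FASN1 and ACC had differences of 0.37 and 0.24 that were not called (adjusted p = 0.0821 and 0.180). FASN1 stood at 3322 ± 567 SD (n = 3) at 4 h and at 391.9 ± 79.5 SD (n = 4) in the LSD larvae at 8 h. With quantile normalization 10 members of the list were called higher, FASN1 and ACC among them. FASN1 was also called higher with array weights, with only the compared groups in the fit, and without HSD 4 h replicate 3 or LSD 8 h replicate 3. The members that rose act at the desaturation, activation and storage of fatty acids. Desat1, the stearoyl-CoA desaturase, rose from 1228, 1381 and 1144 at 4 h to 1927, 1725, 1864 and 1798 at 16 h, with no overlap (0.55 ± 0.09 SE in log2, adjusted p = 3.9e-04). Lsd-2, a perilipin of lipid droplets, had values of 96.1, 105 and 88.7 at 4 h and 146, 148, 159.8 and 148 at 16 h (0.64 ± 0.07 SE in log2, adjusted p = 7.3e-05). Its 8 h mean of 162 ± 6.52 SD (n = 3) was at the later level. Acsl, which activates long-chain fatty acids, rose by 0.87 (adjusted p = 0.00195).

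The list of the opposite direction, fatty acid oxidation and lipolysis, was called lower in 12 of 17 members and higher in none. Of all genes 19.3% were called lower, and the list median was -0.39. CG12262, a medium-chain acyl-CoA dehydrogenase, had values of 327, 253 and 292 at 4 h and 146, 120.1, 91.2 and 129 at 16 h. No 16 h library reached the lowest 4 h library, and the gene fell by 1.27 (adjusted p = 5.4e-05). yip2, a thiolase of the last step, had values of 275, 239.7 and 263 at 4 h and 163, 157, 150.4 and 160.4 at 16 h (-0.72 ± 0.07 SE in log2, adjusted p = 3.3e-05). Hmgs, the synthase at the entry to ketone bodies and isoprenoids, fell by 1.10 (adjusted p = 6.8e-04) and Etf-QO, which passes the electrons on to the respiratory chain, by 0.39 (adjusted p = 3.2e-04). The list's median was -0.14 from 4 h to 8 h and -0.25 from 8 h to 16 h, with 1 and 10 members called lower in these intervals (4.52% and 15.2% of all genes). With quantile normalization the list's median between 4 h and 16 h was -0.25 and 8 members were called lower, and the main scaling gave 7 at an adjusted p of 0.01 and 4 with a fitted fold of at least 1.5.

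In amino acid metabolism single enzymes had large differences. Sardh, which breaks down sarcosine, had values of 22.8, 16.3 and 14.4 at 4 h and 1.86, 2.37, 2.87 and 2.20 at 16 h. The groups were far apart (-2.68 ± 0.20 SE in log2, adjusted p = 8.6e-06), and no other member of the metabolic lists had a larger difference. Sardh stood at 6.21 ± 1.35 SD (n = 3) at 8 h and at 50.05 ± 12.2 SD (n = 4) on LSD. Gnmt, the glycine methyltransferase that makes sarcosine, fell from 147, 129.99 and 121 to 78.9, 52.0, 81.8 and 47.4 (-1.06 ± 0.21 SE in log2, adjusted p = 0.00183). Its 8 h mean was 190.2 ± 49.7 SD (n = 3), above the 4 h libraries. Gs1, the mitochondrial glutamine synthetase, had values of 932, 975 and 952 at 4 h and 529, 492, 461 and 469 at 16 h. Its groups were apart, and it fell by 0.97 (adjusted p = 6.8e-06). Over the whole list of amino acid catabolism 2 members were called higher (1 without HSD 16 h replicates 2, 3 or 4 or HSD 4 h replicates 1, 3 or 4, 4 without LSD 8 h replicate 3, 4 with quantile normalization, 5 with only the compared groups in the fit). In the same list 5 of 16 were called lower (3 without HSD 16 h replicate 2 or HSD 4 h replicates 1 or 3, 3 with quantile normalization). Over that of serine, one-carbon and glutamine synthesis 3 were called higher (1 without HSD 16 h replicate 3 or HSD 4 h replicates 1 or 4), and 2 of 13 were called lower (1 without HSD 16 h replicates 2 or 4 or HSD 4 h replicates 3 or 4, 1 with quantile normalization). Sugar transporters were called higher in 5 and lower in 2 of 12 (lower: 1 without HSD 16 h replicates 2, 3 or 4 or HSD 4 h replicates 1 or 3, 1 with quantile normalization or with the replicate block). CG3285 rose from 12.4, 14.9 and 12.7 to 28.6, 30.0, 27.5 and 27.5 (1.06 ± 0.17 SE in log2, adjusted p = 4.5e-04). CG15406, another predicted sugar transporter, fell from 27.98, 27.9 and 22.7 to 10.9, 8.87, 11.3 and 11.2 (-1.27 ± 0.16 SE in log2, adjusted p = 1.1e-04). In glycogen and trehalose metabolism 2 of 11 were called higher, among them UGP, which makes UDP-glucose (0.40 ± 0.06 SE in log2, adjusted p = 4.3e-04), and 3 lower (0 with quantile normalization).

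Ribosome biogenesis was higher at 16 h across nearly its whole list: 31 of 32 nucleolar factors rose and none fell, where 16.9% of all genes rose, with a median of 0.84 and a range of 0.09 to 1.297. With a fitted fold of at least 1.5 the count was 27. Nopp140, a nucleolar chaperone of small ribonucleoproteins, had values of 47.6, 57.9 and 54.4 at 4 h and 119, 132, 152 and 125 at 16 h. The groups did not overlap, and the difference was 1.297 ± 0.13 SE in log2, adjusted p = 4.6e-05. hoip, a core protein of the box C/D particles that methylate ribosomal RNA, rose from 35.0, 38.1 and 38.4 to 75.4, 88.4, 96.1 and 81.9 (1.18 ± 0.12 SE in log2, adjusted p = 4.1e-05). Another core protein of these particles, nop5, rose by 0.94 (adjusted p = 5.4e-05). The exception was Nop17l (0.09 ± 0.13 SE in log2, adjusted p = 0.630). The list's medians were 0.35 from 4 h to 8 h and 0.49 from 8 h to 16 h, with 11 and 27 members called higher (4.62% and 14.2% of all genes). The LSD larvae at 8 h were higher still. Their libraries had list medians of 0.46 to 0.89 relative to the mean of the 7 HSD 4 h and 16 h libraries, against 0.23 to 0.50 at 16 h and -0.58 to -0.42 at 4 h on HSD. RNA polymerases I and III, which transcribe ribosomal and transfer RNA, were called higher in 10 of 12 members and lower in 1 (2 without LSD 8 h replicate 4). The polymerase I subunits RpI1 and RpI135 rose by 0.94 and 0.95, and the member that fell was udd, a factor at ribosomal DNA promoters (-0.50).

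Ribosomal protein genes themselves did not share this direction. Of 87 cytoplasmic ribosomal protein genes 28 were called lower and 2 higher (1 without HSD 4 h replicates 3 or 4), with a median of -0.14 (-0.05 with quantile normalization). RpL36 fell from 1318, 1188 and 1207 to 1038, 987, 946 and 1041 (-0.30 ± 0.06 SE in log2, adjusted p = 0.00190). RpL36A fell by 0.36 (adjusted p = 8.1e-04). The riser RpLP0-like, from 33.4, 33.6 and 35.4 to 63.2, 67.9, 77.1 and 63.3 (0.98 ± 0.11 SE in log2, adjusted p = 7.1e-05), is by its name related to a ribosomal protein and known in yeast as a factor of ribosome assembly. The count called lower was 8 without HSD 4 h replicate 1, 14, 15 and 17 without HSD 16 h replicates 2, 3 and 4, 16 without HSD 4 h replicate 4, 8 with quantile normalization, 13 with the replicate block and 46 with array weights. Mitochondrial ribosomal proteins were called higher in 16 of 72 (10 without HSD 4 h replicate 1) and lower in 1 (0 to 2 without 1 library). Among them mRpS10 rose by 0.50 (adjusted p = 4.3e-04). In the respiratory chain 12 of 63 were called higher, near the 16.9% of all genes, and none lower. The largest of these rises was in Cyt-c-p, cytochrome c (0.52 ± 0.08 SE in log2, adjusted p = 3.4e-04). The count called higher in the chain was 19 without LSD 8 h replicate 3, 20 with array weights and 41 with quantile normalization. The mitochondrial chaperones rose more: Hsp60 from 422, 473 and 479.9 to 753, 777, 803 and 771 (0.76 ± 0.07 SE in log2, adjusted p = 3.0e-05). Hsc70-5 rose by 0.68 (adjusted p = 2.7e-04). Among 13 heat shock genes tested, 4 were called higher and 2 lower (1 without HSD 16 h replicates 2 or 3 or HSD 4 h replicates 1, 3 or 4 or HSD 8 h replicates 2 or 3, 1 by edgeR, with no variance trend, with quantile normalization or with the replicate block). Of 20 aminoacyl-tRNA synthetases 6 were called higher (12 with quantile normalization) and 3 lower (1 without HSD 16 h replicates 1, 3 or 4 or HSD 4 h replicates 3 or 4, 1 by edgeR, with only the compared groups in the fit or with quantile normalization).

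Genes of DNA replication rose together, with 19 of 25 members of the list of DNA replication and cell cycle called higher and 1 lower (median 0.59). Of all genes 16.9% were called higher. RnrS, the small subunit of ribonucleotide reductase, had values of 55.3, 62.7 and 65.1 at 4 h and 111, 120.2, 109 and 125 at 16 h, all 16 h libraries above all 4 h libraries (0.93 ± 0.07 SE in log2, adjusted p = 1.2e-05). The helicase subunits Mcm3 and Mcm6 rose by 0.74 (adjusted p = 4.6e-05) and 0.59 (adjusted p = 3.0e-05), and Orc2 of the origin recognition complex by 0.81 (adjusted p = 2.0e-04). CycE, the cyclin of S phase, rose by 0.68 and Cdk1, the kinase of mitotic entry, by 0.51 (not called without HSD 4 h replicate 1). In all, 13 members of the list were called higher with a fitted fold of at least 1.5. The other 6 members, singled out after their values were seen, act in mitosis: polo, a mitotic kinase, fell (-0.46 ± 0.09 SE in log2, adjusted p = 0.00164), and CycB3, stg, fzy, Klp61F and aurB were not called, with log2 differences between -0.22 and 0.29. The list's medians were 0.08 from 4 h to 8 h and 0.47 from 8 h to 16 h, and 1 and 19 members were called higher in these intervals (4.62% and 14.2% of all genes). Summed levels of the list on HSD were 473 to 500 at 4 h, 521 to 552 at 8 h and 690 to 737 at 16 h. In the LSD larvae at 8 h they were 682 to 744, in the range of HSD 16 h.

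The proteasome went the other way, with all 32 members called lower and a median of -0.38, where 19.3% of all genes were called lower. Leaving out any 1 library kept 31 or 32 of these calls, and at the same threshold the other filters, scalings and models kept at least 29. The falls were small: 30 members were called lower at an adjusted p of 0.01, but only 1 with a fitted fold of at least 1.5. With quantile normalization the median was -0.24. Rpn10, the ubiquitin receptor of the regulatory particle, had values of 138, 150.3 and 153 at 4 h and 105, 103, 95.1 and 101 at 16 h. The groups were apart by more than their spread (-0.54 ± 0.06 SE in log2, adjusted p = 5.4e-05). Rpt1, an ATPase of its base, fell by 0.46 (adjusted p = 4.1e-05) and Prosalpha5, of the core particle, by 0.52 (adjusted p = 2.8e-04). The list's medians by library were 0.18, 0.21 and 0.26 at 4 h and -0.09, -0.16, -0.25 and -0.14 at 16 h, and 0.05 to 0.20 at 8 h, relative to the mean of the HSD 4 h and 16 h libraries. From 4 h to 8 h 2 members were called lower and from 8 h to 16 h 29 (medians -0.09 and -0.30). Of all genes 4.52% and 15.2% were called lower in these intervals.

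**Figure D2:**
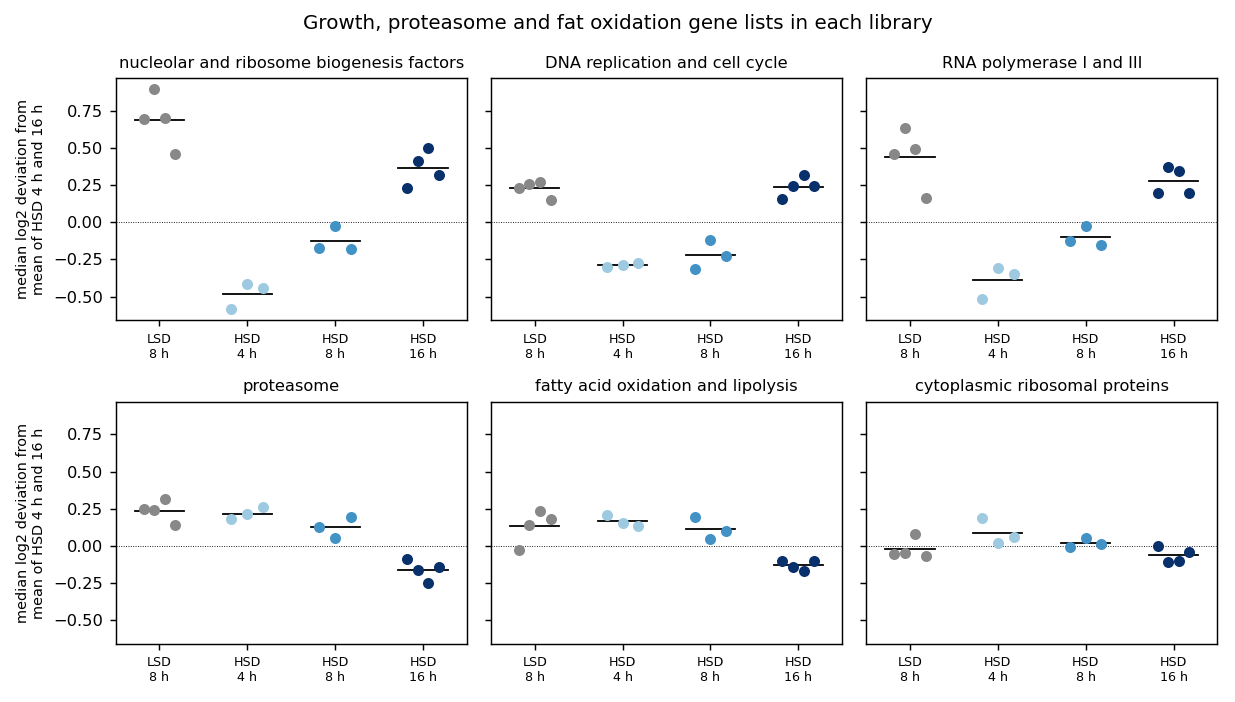
Each point is 1 library, and its height is the median over a list's genes of the log2(value + 0.5) deviation from the gene's mean over the 7 HSD 4 h and 16 h libraries; bars are group means. The 4 HSD 16 h libraries stand above the 3 HSD 4 h libraries in the nucleolar, polymerase and replication lists. They stand below them in the proteasome list and in that of fatty acid oxidation and lipolysis. LSD larvae at 8 h are highest in the nucleolar list.

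Digestive enzymes moved in both directions. In the list of maltases, amylases and tobi 4 members were called higher and 5 lower of 13. Of all genes 16.9% were called higher and 19.3% lower. Mal-A6, a maltase that cleaves sucrose and maltose in the gut, had values of 42.6, 59.5 and 19.7 at 4 h and 253, 253, 231 and 337 at 16 h. The highest 4 h library was below the lowest 16 h library (2.83 ± 0.40 SE in log2, adjusted p = 2.0e-04), and the 8 h mean of 127 ± 28.3 SD (n = 3) lay in between. On LSD at 8 h it was 41.5 ± 19.1 SD (n = 4). Mal-A8 rose from 20.4, 32.7 and 11.7 to 116, 120.4, 120.5 and 139.8 (2.61 ± 0.35 SE in log2, adjusted p = 1.4e-04). In the reference annotation Mal-A1 to Mal-A8 lie close to each other on chromosome arm 2R. Mal-A1 (2.00), Mal-A6, Mal-A7 (1.76, not called without HSD 4 h replicate 4) and Mal-A8 were called higher, and Mal-A2 to Mal-A5, with log2 differences between -0.64 and 0.17, were not called, except that Mal-A2 was with only the compared groups in the fit. Mal-A1 to Mal-A5, Mal-A7 and the Mal-B genes were singled out after their values were seen. Amy-p, the proximal of 2 neighbouring and nearly identical amylase genes that digest starch, had values of 55.7, 45.5 and 29.0 at 4 h and 0.978, 0.887, 0.683 and 3.52 at 16 h. All 16 h libraries were far below the 4 h ones (-4.58 ± 0.42 SE in log2, adjusted p = 2.7e-05), and the 8 h mean was 12.1 ± 3.88 SD (n = 3). On LSD at 8 h Amy-p stood at 48.2 ± 17.997 SD (n = 4), in the range of the HSD 4 h libraries. Its copy Amy-d fell from 25.6, 20.4 and 12.4 to 0.373, 0.253, 0.0455 and 1.56 (-4.37 ± 0.44 SE in log2, adjusted p = 4.6e-05), and reads may be split between these copies in counting. The pair in cluster B, Mal-B1 and Mal-B2, were called lower by 0.82 and 0.75.

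Trypsins and Jonah proteases were called higher in 11 of 28 members and lower in none (median 0.60). From 4 h to 8 h 7 members of the list were called higher, and from 8 h to 16 h 1 was called lower and none higher. Of all genes 4.62% were called higher in the earlier interval, and 15.2% lower and 14.2% higher in the later. yip7, a serine protease of this family, had values of 367, 462 and 234 at 4 h and 1315, 1327, 1064 and 1359.9 at 16 h (1.88 ± 0.19 SE in log2, adjusted p = 4.3e-05), with no overlap between the groups. alphaTry rose from 54.1, 79.9 and 32.6 to 231, 233, 197 and 262 (2.13 ± 0.29 SE in log2, adjusted p = 1.5e-04), and deltaTry by 1.24 (adjusted p = 1.4e-05). Jon74E, with 54.3, 122 and 20.2 at 4 h and 345, 357, 243 and 395 at 16 h, had the largest difference (2.67 ± 0.49 SE in log2, adjusted p = 0.00115). It was 3.29 without HSD 4 h replicate 3 and 2.01 without HSD 4 h replicate 4. Within this list the 4 h libraries were far apart, with list medians of -0.57, 0.23 and -0.92 for replicates 1, 3 and 4 relative to the mean of the 7 libraries. Gut lipases were called lower in 6 of 11 tested members and higher in none. CG6283, a predicted lipase, had the largest fall among called genes with a mean of at least 5 in either group. Its values were 69.3, 40.7 and 53.2 at 4 h and 0.838, 0.380, 1.27 and 1.03 at 16 h. The groups differed by -5.33 ± 0.44 SE in log2, adjusted p = 1.4e-05, and the 8 h mean was 19.2 ± 3.78 SD (n = 3). CG8093 fell from 16.3, 17.97 and 8.53 to 0.186, 0.211, 0.182 and 0.733 (-4.14 ± 0.59 SE in log2, adjusted p = 2.2e-04). CG6271 fell by 3.21 (adjusted p = 1.2e-04). Most 16 h values of CG6283 and CG8093 rest on few reads, since 3 reads correspond to 0.127 to 0.147 in these libraries. Of 8 sterol carriers of the Npc2 family 1 was called higher (2 without HSD 4 h replicate 3, 2 with array weights) and 3 lower. Of 5 lysozymes 1 was called higher (0 without HSD 16 h replicates 1 or 4 or HSD 4 h replicates 1 or 4, 4 without HSD 4 h replicate 3, 0 with the replicate block). Of 22 subunits of the proton pump V-ATPase 1 was called higher (4 without LSD 8 h replicate 2, 6 without LSD 8 h replicate 3, 7 without HSD 4 h replicate 3, 4 with only the compared groups in the fit, 9 with array weights, 14 with quantile normalization) and 2 lower. Trypsins, Jonah proteases, amylases and maltases include near-identical neighbours whose reads the counting may have split.

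**Figure D3:**
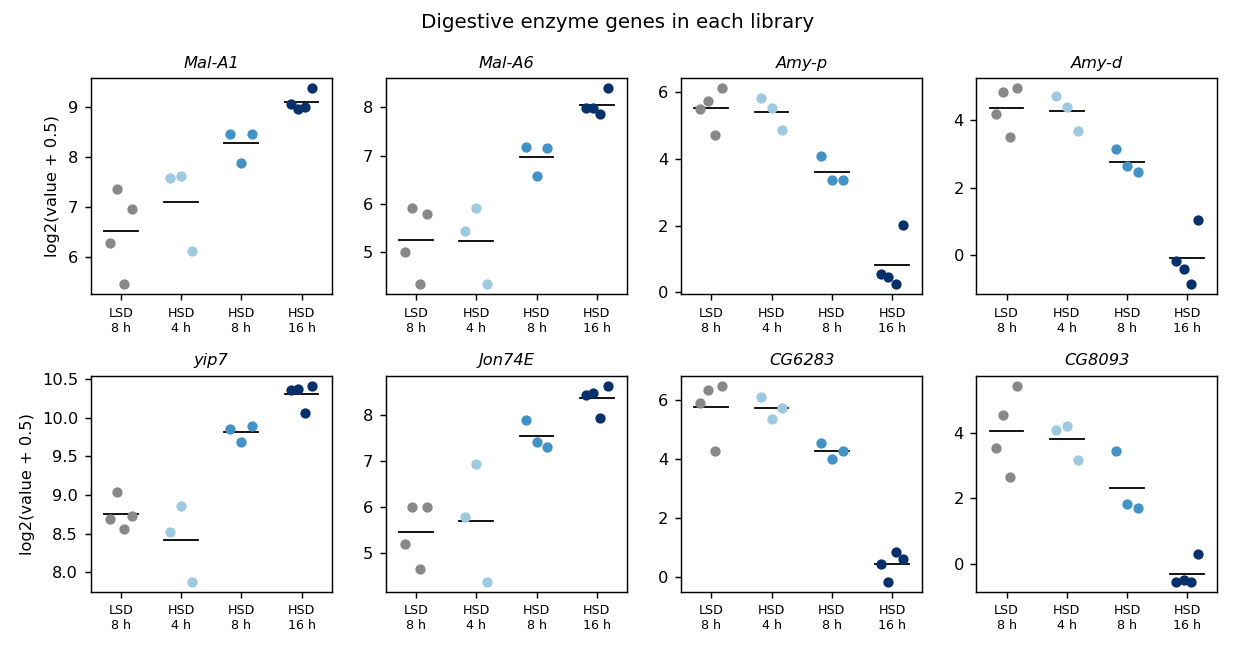
Points are libraries and bars group means of log2(value + 0.5) for 8 digestive enzyme genes in larvae at 8 h on LSD (n = 4) and at 4 h (n = 3), 8 h (n = 3) and 16 h (n = 4) on HSD. Mal-A1, Mal-A6, yip7 and Jon74E are highest at HSD 16 h, and Amy-p, Amy-d, CG6283 and CG8093 are lowest at 16 h.

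Genes of the immune response were lower at 16 h. Of 13 tested antimicrobial peptide genes 9 were called lower and none higher, where 19.3% of all genes were called lower. Over those 13 the median was -3.07, and 3 more were below the filter. Drs, the antifungal peptide drosomycin, had values of 134, 92.3 and 72.3 at 4 h and 5.82, 0.507, 3.82 and 5.03 at 16 h. The groups were apart, the difference was -4.78 ± 0.58 SE in log2, adjusted p = 9.1e-05, and the 8 h mean was 103 ± 38.1 SD (n = 3), in the range of the 4 h libraries. Without HSD 16 h replicate 2 the difference was -4.18. DptB, a diptericin, had values of 95.2, 49.2 and 18.3 at 4 h and 10.1, 0.0422, 0.228 and 0.147 at 16 h (-5.12 ± 1.01 SE in log2, adjusted p = 0.00190). HSD 16 h replicate 1 was by far the highest of its group there, and the difference was -6.14 without it and -5.75 without HSD 4 h replicate 4. The same library was the highest at 16 h for Dpt, Mtk and edin, whose differences were -4.26, -3.79 and -4.32 and became -4.92, -4.52 and -5.16 without it. Dpt was also moved by HSD 4 h replicates 1 and 4 (-3.66 and -5.21 without them). The list medians by library were 2.77, 2.67 and 0.50 at 4 h and 0.96, -2.64, -2.32 and -1.99 at 16 h: replicate 4 at 4 h and replicate 1 at 16 h overlapped, and the other libraries of the 2 groups were apart. Among IM1 to IM4, peptides of the Toll response, none was called, and HSD 16 h replicate 1 was as high as the 4 h libraries (IM1, 22.2, 44.7 and 4.45 at 4 h and 44.0, 0.0422, 0.910 and 0.244 at 16 h). Without that library IM1 and IM3 were called lower. IM33, another immune-induced peptide, fell from 585, 469 and 490.1 to 351, 242, 209 and 254 (-0.98 ± 0.14 SE in log2, adjusted p = 2.4e-04).

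Receptors and enzymes that recognise bacterial peptidoglycan fell in 6 of 10 members, where 19.3% of all genes were called lower. With a mean of at least 5 as the filter 3 were called lower, because the other called members lay below that filter and were not tested. PGRP-LA had values of 67.9, 74.5 and 81.8 at 4 h and 29.6, 22.1, 19.4 and 25.9 at 16 h, with all 16 h libraries below all 4 h libraries (-1.62 ± 0.18 SE in log2, adjusted p = 6.0e-05). PGRP-LC, the membrane receptor of the Imd pathway, fell by 0.51 (adjusted p = 1.2e-04). PGRP-SB1, an amidase, fell from 51.7, 18.8 and 13.3 to 7.64, 1.18, 1.09 and 0.929 (-3.35 ± 0.68 SE in log2, adjusted p = 0.00235; -3.94 without HSD 16 h replicate 1). PGRP-LB, an amidase that degrades peptidoglycan, and the intracellular receptor PGRP-LE were not called (0.18 ± 0.12 SE in log2, adjusted p = 0.274 and 0.09 ± 0.07 SE in log2, adjusted p = 0.338).

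**Figure D4:**
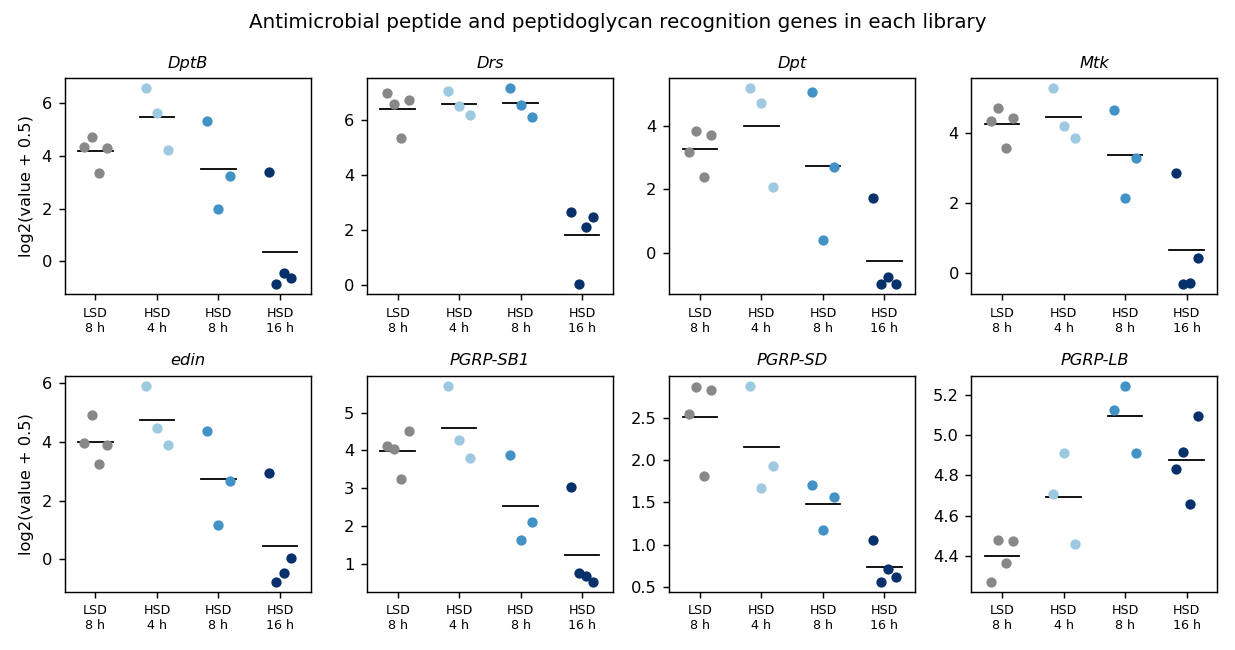
Points are libraries and bars group means of log2(value + 0.5) for 5 antimicrobial peptide genes and 3 peptidoglycan recognition genes in the 4 groups. The HSD 16 h group is lowest in all panels but PGRP-LB, and 1 of its libraries, replicate 1, lies above the other 3 in DptB, Dpt, Mtk, edin and PGRP-SB1.

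Enzymes that conjugate foreign and internal compounds were higher at 16 h: 22 of 49 glutathione and glucuronosyl transferases were called higher and 5 lower (median 0.25). Of all genes 16.9% were called higher and 19.3% lower. GstD7 had values of 67.1, 63.8 and 66.3 at 4 h and 184, 193, 150.4 and 164 at 16 h. The groups were far apart (1.38 ± 0.09 SE in log2, adjusted p = 3.6e-06), with an 8 h mean of 99.4 ± 5.39 SD (n = 3). Its neighbour GstD6 rose from 2.50, 3.06 and 1.86 to 11.2, 12.5, 10.6 and 11.2 (2.01 ± 0.26 SE in log2, adjusted p = 1.3e-04). GstE5 rose by 0.66 (adjusted p = 5.0e-05) and the glucuronosyl transferase Ugt86Dd by 1.26 (adjusted p = 1.7e-05). The number called lower was 2 without 1 of HSD 16 h replicates 3 and 4 or 1 of HSD 4 h replicates 1 and 4. Cytochrome P450 genes were called in both directions, 14 higher and 18 lower of 68, not far from the same shares of all genes. The count higher was 8 without HSD 16 h replicate 3 or HSD 4 h replicate 1, 9 without HSD 16 h replicate 4, 5 without HSD 4 h replicate 4, 9 with the replicate block and 22 with array weights. Cyp49a1 fell from 67.9, 71.9 and 73.0 to 27.02, 27.2, 14.2 and 23.9 (-1.64 ± 0.22 SE in log2, adjusted p = 1.5e-04). Cyp301a1, a P450 of cuticle formation, fell from 114, 95.6 and 119 to 55.2, 51.9, 15.3 and 37.8 (-1.59 ± 0.33 SE in log2, adjusted p = 0.00254). In both, replicate 3 was the lowest at 16 h.

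Genes of cuticle building and molting were lower at 16 h in large part. The Tweedle and Osiris families, cuticle proteins and membrane proteins of cuticle-secreting cells, were called lower in 27 of 40 tested members and higher in 1 (median -1.90; 0.02 from 4 h to 8 h and -1.98 from 8 h to 16 h). Of all genes 19.3% were called lower over the whole span. From 8 h to 16 h 30 of the tested members were called lower and 1 higher, where 15.2% of all genes were called lower and 14.2% higher. From 4 h to 8 h none was called lower and 2 higher, where 4.52% of all genes were called lower and 4.62% higher. Osi9 had values of 1022, 1176 and 1290.0 at 4 h and 317, 300.0, 195 and 306 at 16 h. All 16 h libraries were below all 4 h libraries (-2.07 ± 0.22 SE in log2, adjusted p = 5.4e-05), and the 8 h mean was 1117 ± 231 SD (n = 3). Osi6 fell from 6934, 7759 and 9489 to 2097, 2425, 434 and 1435 (-2.58 ± 0.48 SE in log2, adjusted p = 0.00127). TwdlT fell from 223, 209 and 250.1 to 52.6, 67.0, 39.4 and 69.8 (-2.01 ± 0.20 SE in log2, adjusted p = 4.4e-05). At 16 h replicate 3 was the lowest library for most of these genes: the list medians were -0.48, -0.32, -1.37 and -0.41 for replicates 1 to 4, against 0.88 to 1.15 at 4 h. The member called higher, Twdlalpha (1.09 ± 0.39 SE in log2, adjusted p = 0.0466), lost its call without any 1 of the 4 HSD 16 h libraries, HSD 4 h replicates 3 or 4, HSD 8 h replicate 4 or LSD 8 h replicates 1, 2 or 4, and also with array weights, by edgeR, with only the compared groups in the fit and with a pseudocount of 1.

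In the Osiris cluster on chromosome arm 3R 14 Osiris genes were tested and all 14 were called lower. CG15597, which lies between Osi12 and Osi14 in that cluster, had the largest rise among called genes with a mean of at least 5 in either group. Its values were 5.45, 3.23 and 5.29 at 4 h and 34.4, 47.0, 128 and 49.4 at 16 h, with no overlap between the groups and replicate 3 the highest (3.50 ± 0.75 SE in log2, adjusted p = 0.00304). The 8 h mean was 7.58 ± 8.84 SD (n = 3). Of the 4 genes of other names tested within the bounds of the cluster 2 were called lower and 1, CG15597, higher.

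Chitin enzymes were called lower in 20 of 30 members, where 19.3% of all genes were called lower, and higher in none. Their median from 4 h to 16 h was -0.81, and 19 were called lower from 8 h to 16 h, where 15.2% of all genes were. The chitin synthase kkv had values of 420.1, 474 and 523 at 4 h and 173, 203, 114.5 and 157 at 16 h, apart from each other (-1.57 ± 0.17 SE in log2, adjusted p = 6.0e-05). The chitinase Cht7 fell from 469, 549 and 583 to 137, 198, 129 and 163 (-1.78 ± 0.20 SE in log2, adjusted p = 7.2e-05). Cda5, a chitin deacetylase, fell by 1.55 (adjusted p = 1.2e-04). Cuticle proteins with the Rebers and Riddiford type of chitin-binding domain were called lower in 19 and higher in 8 of 63 tested (median -0.57, and -0.26 by edgeR). From 4 h to 8 h 7 were called higher and 1 lower (median 0.76), and from 8 h to 16 h 3 higher and 33 lower (median -1.49). Of all genes 4.62% were called higher and 4.52% lower in the earlier interval, and 14.2% and 15.2% in the later. Cpr65Eb fell from 129, 118 and 167 to 36.5, 37.7, 16.4 and 34.1 (-2.19 ± 0.25 SE in log2, adjusted p = 7.3e-05). The risers included Cpr60D, with 1.17, 0.414 and 0.360 at 4 h and 2.79, 12.97, 2.41 and 2.88 at 16 h (2.06 ± 0.65 SE in log2, adjusted p = 0.0263). Its 16 h replicate 2 stood far above the other 3, and its 8 h mean was 13.4 ± 6.40 SD (n = 3). It lost its call without that library, without HSD 4 h replicates 3 or 4 and with the replicate block. The count called higher was 3 without HSD 16 h replicate 2, 5 without HSD 16 h replicate 3, 2 without HSD 4 h replicate 3, 3 without HSD 4 h replicate 4 and 5 with a mean of at least 5 as the filter.

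Ecdysone genes were called lower in 9 and higher in 2 of 25 (lower: 5 without HSD 4 h replicate 1 and 5 with quantile normalization; higher: 1 without HSD 16 h replicate 4, 4 without LSD 8 h replicate 2, 5 without LSD 8 h replicate 4, 5 with only the compared groups in the fit or with quantile normalization, 6 with array weights). ImpE1, an ecdysone-inducible membrane protein, had values of 565, 854 and 745 at 4 h and 243, 318, 52.2 and 168 at 16 h. The groups did not overlap, and replicate 3 was the lowest (-2.13 ± 0.48 SE in log2, adjusted p = 0.00427). ftz-f1, a nuclear receptor that acts between ecdysone pulses, fell from 202, 137 and 155 to 57.5, 58.0, 42.6 and 70.6 (-1.52 ± 0.32 SE in log2, adjusted p = 0.00280), with an 8 h mean of 185 ± 77.6 SD (n = 3). shd, the enzyme that makes the active hormone 20-hydroxyecdysone in peripheral tissues, rose from 5.12, 6.543 and 3.48 to 12.8, 12.8, 16.6 and 14.4 (1.43 ± 0.32 SE in log2, adjusted p = 0.00374).

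**Figure D5:**
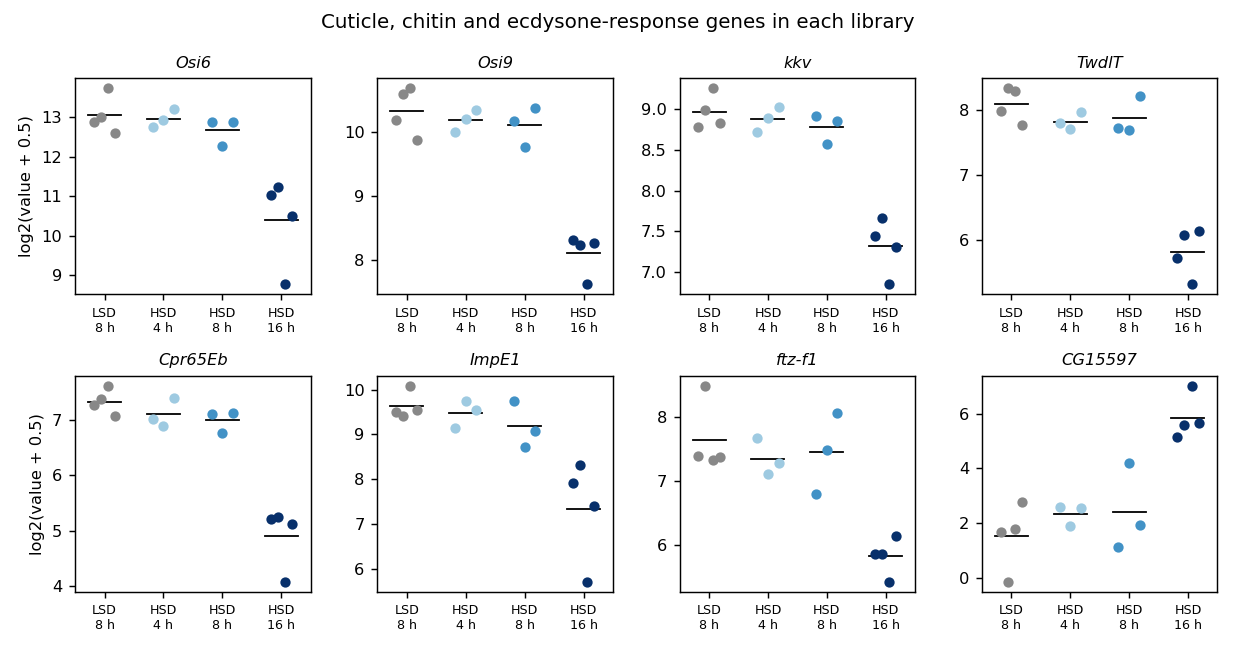
Points are libraries and bars group means of log2(value + 0.5) for cuticle, chitin and ecdysone-response genes and for CG15597 in the 4 groups. The LSD 8 h, HSD 4 h and HSD 8 h groups lie at similar heights in the first 7 panels and the 4 HSD 16 h libraries below them, and in CG15597 the order is turned over.

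Muscle contractile genes were called lower in 12 of 19 tested, where 19.3% of all genes were called lower, and higher in 1. The count higher was 0 without HSD 4 h replicate 1 and 2 with quantile normalization. The list median was -0.30 (-0.03 with quantile normalization), and the summed level of the list was 50960.0 to 56731 at 4 h and 43671 to 46354 at 16 h. TpnC73F, a troponin C, fell from 654, 607 and 715 to 386, 349, 358 and 367 (-0.85 ± 0.07 SE in log2, adjusted p = 1.5e-05). Of 20 neuronal genes 1 was called (2 without HSD 16 h replicate 1, 4 with quantile normalization), elav, the neuronal RNA-binding protein, which rose from 64.2 ± 2.81 SD to 81.6 ± 5.63 SD (0.34 ± 0.06 SE in log2, adjusted p = 9.6e-04). Of 18 hemocyte and basement membrane genes 2 were called higher (1 without HSD 16 h replicates 1, 2 or 3 or HSD 4 h replicates 1 or 4, 4 without LSD 8 h replicate 2, 6 without HSD 4 h replicate 3, 1 by edgeR, with a mean of at least 5 as the filter, with only the compared groups in the fit or with the replicate block, 4 with array weights or with quantile normalization) and 1 lower. The median of this list was 0.29, and its members ranged from -0.63 to 1.23. The member called lower was Ndg, the basement membrane protein nidogen, from 404, 428 and 428 to 267, 256, 286 and 279 (-0.63 ± 0.07 SE in log2, adjusted p = 5.4e-05). None of 6 salivary gland and 4 gonad markers was called. Of 3 fat body markers matched, Mtp, the lipid transfer protein that loads lipoproteins, was called lower (-0.52 ± 0.16 SE in log2, adjusted p = 0.0259; lost without HSD 16 h replicate 3 or HSD 4 h replicates 1 or 4 and with quantile normalization). The other 2 matched markers were not called, and the 3 differences ranged from -0.52 to 0.76 with a median of -0.20. The defining markers of fat body that the list holds beyond these 3 were not analysed here. Summed levels of the neuronal list were 2069.5 to 2345 at 4 h and 2051 to 2511 at 16 h. The part of tissue shares in the gene groups above was not tested.

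Among 19 tested odorant-binding proteins 2 were called higher (1 with a mean of at least 5 as the filter) and 3 lower. Obp44a had values of 261, 279 and 262 at 4 h and 439.7, 442, 539 and 432 at 16 h. The 16 h libraries were all above, with replicate 3 the highest (0.79 ± 0.08 SE in log2, adjusted p = 5.4e-05). Obp99c, from the same family, fell from 237, 206 and 231 to 145, 121, 126 and 144 (-0.74 ± 0.08 SE in log2, adjusted p = 5.9e-05). Of 26 peptide hormone genes 2 were called higher (1 without HSD 16 h replicates 1, 2 or 4 or HSD 4 h replicate 1) and 3 lower (1 without HSD 16 h replicate 3 or HSD 4 h replicate 4, 1 with a mean of at least 5 as the filter or with quantile normalization). Tk, a tachykinin of gut and brain, rose from 14.9, 14.6 and 13.8 to 19.1, 18.97, 18.6 and 19.6 (0.39 ± 0.08 SE in log2, adjusted p = 0.00210).

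The largest rises in genes that belong to no list were CG13678 (2.79), CG9521 (2.63), CG11413 (2.60), Nplp4 (2.54), CG8012 (2.47) and CG14566 (2.34), all called. Nplp4, a neuropeptide-like precursor, had values of 24.8, 14.1 and 15.9 at 4 h and 76.3, 88.9, 184 and 99.5 at 16 h, with no overlap. CG13678 had values of 9.24, 2.94 and 4.69 at 4 h and 30.6, 44.2, 43.9 and 35.0 at 16 h. CG8012, which lies near it on chromosome arm 3L, had values of 5.396, 2.15 and 5.11 at 4 h and 21.4, 21.4, 29.1 and 25.1 at 16 h. The 16 h libraries of this pair were all above their 4 h libraries (adjusted p = 0.00571 and adjusted p = 0.00781). CG14566 lost its call without HSD 16 h replicates 3 or 4 or any 1 of the 3 HSD 4 h libraries. The largest fall outside the lists was CG43153, from 39.6, 19.1 and 25.2 to 0.745, 0.507, 0.364 and 0.342 (-4.80 ± 0.26 SE in log2, adjusted p = 9.8e-07).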

How the data were processed

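The data are RNA-seq of whole larvae, 14 libraries in 4 groups. Per the labels' protocols, ribosomal RNA was depleted, libraries were made with a stranded kit and sequenced as single ends in 2 technical replicates. The submitters' processing notes name Trimmomatic, TopHat2 2.1.0, HTSeq and limma. For the counting, no source used here states the genome build, the annotation or the strand setting. The deposited table of the authors holds 1 value per gene and library for 10128 genes, a normalised signal per library whose column sums differ. All values of every library came out as whole reads (within 0.01) when divided by the value of 1 read. The deposited table also holds log2 fold changes, p-values and scores of the authors for other comparisons, which were not used.

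Genes at 1 or more in at least 3 of the 7 libraries of HSD 4 h and 16 h were kept (9977 genes; 151 left out). limma 3.58.1 in R 4.3.3 was fitted with a trend to log2(value + 0.5) over all 14 libraries with a mean per group (10 residual degrees of freedom), two-sided, with Benjamini-Hochberg adjustment over 9977 genes. On simulated counts, the fit recovered 16%, 52%, 100% and 100% of 50 genes each changed 1.3-fold, 1.5-fold, 2-fold and 4-fold, with 6 false calls. The simulation gave all genes the same dispersion, let genes vary independently within a library, and changed only genes with a mean above 5. The real genes differ in spread and vary together, so these figures are not an error rate of the calls given here. Alternatives were pseudocounts, filters, scalings, the groups in the fit, array weights, a replicate block, stricter thresholds, each library left out, and edgeR 4.0.16 on the recovered reads. The filter on a mean of at least 5 takes low genes out of the test, so a count under it can fall without a lost call. Named genes are sug, cbt, Mondo, bigmax and cwo, the 10 largest called rises and falls without overlap, up to 3 called members per list with the smallest adjusted p and up to 2 with the largest difference (mean of at least 5 in the higher group), and members of lists of at most 10. ACC, FASN1, CycB3, CycE, Cdk1, Klp61F, aurB, fzy, polo, stg, udd, daw, Nop17l, IM1 to IM4, Mal-A1 to Mal-A5, Mal-A7, Mal-B1, Mal-B2 and Twdlalpha lie outside this rule and were chosen after their values were seen. Members and lists were chosen with earlier results of these data known. Gene names are those of the table; 9990 of its identifiers are in the BDGP6.54 annotation, which was used for chromosome arms and neighbours only.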

Additional observations from a re-analysis of the deposited data

Results flagged for a closer look

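In 24 of 154 genes examined, all named in the text, 1 of the 4 HSD 16 h libraries lay so far from the other 3 that its gap to the nearest exceeded Dixon's 95% critical share of the group's range. For independent genes with normally distributed values chance would flag about 1 in 20 groups, here 7.70 genes. The named genes are not such a set: several share the same outlying library, and IM1 to IM4 were chosen after their values were seen. The 24 flagged genes therefore cannot be judged against that number. The 3 libraries of HSD 4 h are too few for this test. Above the other 3 at 16 h, replicate 1 stood apart in CG11395 (67.7, others 52.6 to 54.2), Dpt (2.79, others 0 to 0.0910), DptB (10.1, others 0.0422 to 0.228), Hex-C (22.3, others 17.6 to 18.4), IM1 (44.0, others 0.0422 to 0.910), IM2 (22.1, others 0 to 0.147), IM3 (69.2, others 0.0845 to 2.37), IM4 (9.41, others 1.37 to 1.66), Mtk (6.66, others 0.296 to 0.831), PGRP-SB1 (7.64, others 0.929 to 1.18) and edin (7.17, others 0.0845 to 0.538). Below the other 3 at 16 h, replicate 1 stood apart in S6k (109, others 119 to 121). Above the other 3 at 16 h, replicate 2 stood apart in Cpr60D (12.97, others 2.41 to 2.88). Below the other 3 at 16 h, replicate 2 stood apart in CG15406 (8.87, others 10.9 to 11.3) and daw (56.1, others 58.7 to 59.0). Above the other 3 at 16 h, replicate 3 stood apart in CG11413 (15.3, others 5.22 to 6.60), CG15597 (128, others 34.4 to 49.4) and Obp44a (539, others 432 to 442). Below the other 3 at 16 h, replicate 3 stood apart in Cpr65Eb (16.4, others 34.1 to 37.7), Osi14 (148, others 285 to 290.2), Osi9 (195, others 299.9 to 317) and yip7 (1064, others 1315 to 1359.9). Above the other 3 at 16 h, replicate 4 stood apart in Amy-p (3.52, others 0.683 to 0.978) and CG8093 (0.733, others 0.182 to 0.211). The genes of replicate 1 include antimicrobial peptides, immune-induced peptides and the peptidoglycan amidase PGRP-SB1, and those of replicate 3 include members of the Osiris and Cpr families. Groups of genes in which 1 library stands apart rest on 1 sample, and the cause was not tested.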

How the results depend on the processing

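The number of genes called between 4 h and 16 h kept within 1.5 times of 3616 under every alternative but the stricter thresholds: 2762 to 3867 without 1 library (1314 to 1834 higher, 1401 to 2033 lower), 3127 with the replicate block and 3567 by edgeR, of which 3481 were called by limma in the same direction. At an adjusted p of 0.01 it was 2224 (1069 higher, 1155 lower), and with a fitted fold of at least 1.5 1520 (640 and 880). Between 4 h and 8 h the 912 calls became 1757 with array weights, 171 at an adjusted p of 0.01, 300 with a fold of at least 1.5 (218 higher and 82 lower) and 312 to 1250 without 1 library. Between 8 h and 16 h the 2936 calls became 1508 at 0.01, 998 with the fold (221 higher and 777 lower) and 2019 to 3192 without 1 library. Quantile normalization gave 58.4% higher calls for 46.6% over the whole span, 39.8% for 50.6% in the first interval and 68.2% for 48.2% in the second. It turned the medians of the lists of serine and one-carbon synthesis and of trehalose and glycogen metabolism positive. Deviations of same-numbered 4 h and 16 h libraries correlated at 0.0042, 0.10 and 0.096, and those of the other pairs at -0.21 to 0.27. These few pairs cannot show whether same-numbered libraries share a culture or batch. The replicate block gave 3127, 146 and 2379 calls in the 3 comparisons, against 3616, 912 and 2936 in the main fit. Over 201 named genes and 5014 values under alternatives no called direction was reversed, and 89 values lost and 14 gained a call; 16 of the losses came without HSD 4 h replicate 4. At an adjusted p of 0.01 22 of these genes were no longer called, and of 81 counts of called list members 36 fell by over 1.5 times, as did 43 with the fold. For 169 genes no other alternative changed the call. Depth limits few of these genes, since 3 reads correspond to at most 0.180. The causes were not tested.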

Other observations

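The following gene groups were put together after their values were seen and are given as values. Enzymes of cuticle tanning and pigmentation were called lower at 16 h in 8 of 11 members (median -1.29). From 8 h to 16 h 10 were called lower, where 15.2% of all genes were. Their levels were 88.8, 66.2 and 64.8 at 4 h and 25.2, 35.4, 28.7 and 34.4 at 16 h for ple, the tyrosine hydroxylase, and 164, 213 and 242 at 4 h and 67.2, 74.6, 18.2 and 45.1 at 16 h for amd, a decarboxylase of cuticle formation. In both genes all 16 h libraries were below all 4 h libraries. Zona pellucida proteins of the apical matrix, which shape cuticle, were called lower in 6 of 12 (median -1.25). Of these, dyl had values of 1019, 1245 and 1302 at 4 h and 293, 345, 96.4 and 264 at 16 h, with replicate 3 the lowest.

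All 6 lysosomal alpha-mannosidases in the table were called lower (median -1.91; -0.19 from 4 h to 8 h and -2.26 from 8 h to 16 h). LManIII had values of 26.7, 49.7 and 21.9 at 4 h and 2.19, 1.06, 2.91 and 3.32 at 16 h, and LManIV of 7.40, 10.1 and 3.96 at 4 h and 0.419, 0.169, 0.592 and 0.684 at 16 h. Autophagy genes were called lower in 9 of 22 and higher in none (median -0.21). The largest falls were DOR, a coactivator of the ecdysone receptor that takes part in autophagy, with 168, 114 and 121 at 4 h and 48.6, 41.0, 50.2 and 47.3 at 16 h, and Atg8a, the protein attached to autophagosome membranes, with 343, 281 and 248 at 4 h and 145, 131, 125 and 141 at 16 h. Neither gene's groups overlapped.

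On the growth side, 7 of 9 DNA polymerase subunits in the group were called higher and 1 lower (lower: 0 to 1 without 1 library, 0 with the replicate block). Also called higher were 6 of 7 host genes of small nucleolar RNAs (13.9, 16.9 and 16.9 at 4 h and 26.8, 33.1, 33.7 and 30.0 at 16 h for Uhg1). In purine and pyrimidine synthesis 9 of 13 enzymes were called higher and 1 lower. ras, the IMP dehydrogenase of guanine nucleotide synthesis, rose from 66.0, 65.5 and 62.8 to 111, 111, 117 and 113, and ade5 was the member that fell, from 194, 149.6 and 134 to 71.1, 78.4, 87.4 and 75.4. Prolyl 4-hydroxylases were called higher in 3 and lower in 2 of 6 (lower: 0 to 2 without 1 library, 1 with quantile normalization or with the replicate block).

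In the Osiris cluster the genes CG46026 and CG31560, which lie among the Osiris genes, were called lower by 2.40 and 2.41, while CG15594 was not called (-0.85).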
